A study of Mus musculus with 12 samples.

Results

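The cytosolic ribosomal protein genes of C22 cells were taken from the 12 count tables as the gene symbols that start with Rpl or Rps and a number, with an optional a, x or l and a further number, together with Rplp0 to Rplp2 and Rpsa. This gave 84 of the 23282 gene symbols. Of these, 80 passed the filter on low counts, 48 of the large and 32 of the small subunit, among 12425 genes tested. The other 4, Rpl3l, Rpl10l, Rpl39l and Rps4l, are paralogs with 0 to 3 counts in every library, which is at or below the level of 3 counts taken as the smallest a library can show (0.165 to 0.239 CPM, where CPM is the count scaled to a library of 1000000 counts after TMM scaling). C22 is a mouse club cell line, a clone from mice with the H-2Kb-tsA58 transgene, a temperature-sensitive T antigen that lets the cells divide with interferon-γ at the lower temperature and differentiate without it at the higher one. The 4 groups had 3 libraries each. NC cells carried a negative control and NC + TGF-β1 cells were the same cells given 20 ng/ml TGF-β1 for 24 h. siPdcd5 cells had Pdcd5, the gene of programmed cell death 5, knocked down by siRNA, and siPdcd5 + TGF-β1 cells were knockdown cells with the same treatment. All groups share the C22 clone and its transgene. The comparisons ask whether TGF-β1 or the loss of Pdcd5 alters the expression of these genes, and whether the response to TGF-β1 differs between NC and siPdcd5 cells.

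Each cytosolic ribosome holds 1 copy of nearly every ribosomal protein, and the P-stalk proteins are the exception with more. Cells make these proteins in equal numbers and keep their mRNAs among the most abundant. Most of these mRNAs start with a run of pyrimidines, the terminal oligopyrimidine tract, through which mTOR and LARP1 control their translation, so that ribosomal protein output can change without a change of mRNA level. The genes have also left many processed pseudogenes in mammalian genomes, which are DNA copies of their mRNAs.

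These copies bear on what a read count means here, because the authors counted unique and multiple alignments per gene. Of the 80 tested genes, 79 had at least 1 annotated pseudogene that matched the last 200 bases of their transcript or coding sequence over at least 75 bases at 95% identity or more, against 9.55% of 12253 other tested genes. The median was 6.5 copies per gene and the most were 62, for Rpl21. Some copies have rows of their own in the tables. The last bases of the coding sequence, read 5′ to 3′ from the transcripts of GENCODE (GRCm38), show how close 3 such copies are to their parents and how far a true paralog is. Capitals mark the bases that differ within a pair.

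Rpl37 (chromosome 15, 5116645 to 5119140, plus strand): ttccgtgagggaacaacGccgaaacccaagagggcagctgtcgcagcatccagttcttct
Rpl37rt (chromosome 5, 115102923 to 115110268, minus strand): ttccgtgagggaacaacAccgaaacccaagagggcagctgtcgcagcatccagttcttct
Rpl34 (chromosome 3, 130726831 to 130730398, minus strand): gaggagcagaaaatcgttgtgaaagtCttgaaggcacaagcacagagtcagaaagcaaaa
Rpl34-ps1 (chromosome 6, 71124610 to 71124963, plus strand): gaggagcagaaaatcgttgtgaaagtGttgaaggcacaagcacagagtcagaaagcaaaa
Rps27rt (chromosome 9, 114982366 to 114982739, minus strand): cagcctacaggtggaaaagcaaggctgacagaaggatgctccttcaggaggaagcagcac
Rps27 (chromosome 3, 90212522 to 90213651, minus strand): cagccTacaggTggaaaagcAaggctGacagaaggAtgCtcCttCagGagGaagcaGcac
Rps27l (chromosome 9, 66946086 to 66949516, plus strand): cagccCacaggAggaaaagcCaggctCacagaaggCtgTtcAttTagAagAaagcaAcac

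Rpl37 and Rpl34 each differ from their retrocopy at 1 of these bases, Rps27 and Rps27rt at 0, and Rps27 and its paralog Rps27l at 11. Of the copies with rows, the 9 with symbols built on the parent's name were compared with their parents. Copies under other names, such as Gm12191 of Rpl30 and Gm15421 of Rpl22l1, have rows too and were not compared. Of the 9, 4 held about as many counts as their parents or more, and 5 held fewer. The count on Rplp2-ps1 was 1.95 to 2.49 times that on Rplp2, the one on Rpl37rt 1.95 to 2.95 times that on Rpl37, and the one on Rps27rt 1.45 to 2.75 times that on Rps27. Rpl34-ps1 had 0.904 to 0.964 times the count of Rpl34. The other 5, Rpl31-ps12, Rpl14-ps1, Rps19-ps3, Rps15a-ps6 and Rps15a-ps4, had 0.011 to 0.536 times the counts of their parents. A read from such a stretch aligns to the parent and to the copy, so the level of a gene with a close copy may include reads counted in more than 1 place.

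**Figure D1:**
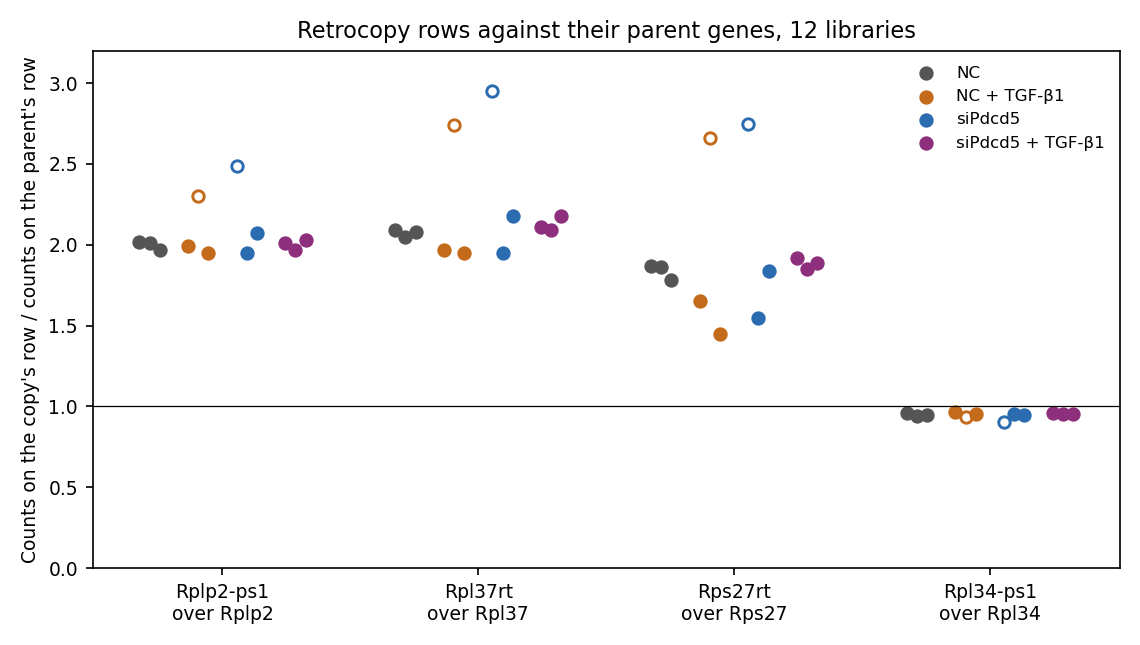
The y axis gives the count on a retrocopy's row divided by the count on its parent gene's row, for the 4 of 9 pairs with the highest ratios on the x axis and 12 libraries colored by group. Open circles are NC + TGF-β1 replicate 2 and siPdcd5 replicate 1, which lie highest for Rplp2-ps1, Rpl37rt and Rps27rt, where the other 10 libraries had ratios of 1.45 to 2.18. Rpl34-ps1 stayed between 0.904 and 0.964.

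The promoters are shown because the pyrimidine tract is the feature for which these genes are best known. RefSeq starts (GRCm38.p6) were available for 63 of the 84 genes, with 75 entries. In the 30 bases around the start, 37.3% of the 75 entries held a run of 8 or more C or T, against 12% of all 32851 entries in the table, and the median longest run was 6 against 4 bases. Within the window from 250 bases before to 50 bases after the start, CCGGAAG on either strand was present in 36% of entries against 8.9% of all, GGGCGG in 60% against 35.7%, and TATAAA in 9.3% against 13.6%. A match describes these letters only. The windows of 6 genes that carry the results below follow, from 15 bases before the start, with the longest pyrimidine run in capitals.

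Rps21 (chr2:180257364-180257393, plus strand): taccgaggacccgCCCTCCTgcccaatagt
Rpl12 (chr2:32961697-32961726, plus strand): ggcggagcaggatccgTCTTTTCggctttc
Rps4x (chrX:102189377-102189406, minus strand): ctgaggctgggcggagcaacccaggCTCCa
Rps2 (chr17:24720048-24720077, plus strand): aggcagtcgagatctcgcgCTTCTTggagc
Rps28 (chr17:33824548-33824577, minus strand): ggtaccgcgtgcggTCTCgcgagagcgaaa
Rpl22l1 (chr3:28805493-28805522, plus strand): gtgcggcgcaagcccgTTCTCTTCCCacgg

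The tables held 12809857 to 17714828 counts per library. Pdcd5 was at 65.1 to 73.5 CPM in the 6 NC and NC + TGF-β1 libraries and at 20.0 to 26.3 CPM in the 6 knockdown libraries, without overlap. The club cell label was checked against 9 markers. Scgb3a2, Cyp2f2, Cckar and Upk3a had 0 counts in all libraries, Scgb1a1 had at most 1, and only Aldh1a1, a retinal dehydrogenase, passed the filter. Aldh1a1 was lower after TGF-β1 in NC and siPdcd5 cells (−1.22 and −0.93, log2) and after knockdown without and with TGF-β1 (−0.86 and −0.57), at an edgeR adjusted p of at most 0.00145. Of 8 fibroblast markers 5 passed. Their summed level was 3750 to 3990 CPM in NC, 7420 to 8040 in NC + TGF-β1, 2540 to 3120 in siPdcd5 and 5590 to 5940 in siPdcd5 + TGF-β1, with Tcf21 at 0. Col1a1 made up most of this sum. It rose after TGF-β1 (1.17 and 1.22) and fell after knockdown (−0.47 and −0.42), while Dcn fell after TGF-β1 (−2.08 and −1.80) and rose after knockdown (0.59 and 0.88), and Col1a2 rose after knockdown without TGF-β1 (1.74). The part of these genes in the results below was not tested. The tables do not tell less RNA per cell from fewer cells of a kind. The labels do not say whether the 3 libraries of a group came from separate cultures, so the p-values measure the spread between these libraries, which may be technical.

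Ribosomal protein genes stood among the most abundant mRNAs of C22 cells. Their order of level was nearly the same in NC and siPdcd5 + TGF-β1 cells, the only groups compared for it. Their mean levels ran from 59.9 CPM for Rpl11 to 2668 CPM for Rplp1, a range of 44.5-fold around a median of 285.4 CPM, and the median member ranked at the 95.3 percentile of tested genes. QuantSeq reads each transcript at its 3′ end, so these levels were not divided by length. Among the highest were Rplp1, a protein of the P-stalk that recruits elongation factors, Rps20 (1946 CPM), Rps14 (1343) and Rps9 (1215). The lowest were Rpl11, Rpl9 (65.4 CPM), Rpl12 (69.3), Rpl35a (69.3) and Rps27 (81.0). This spread describes counts on mRNAs and not the proteins. The rank of Rps27 holds for its own row only, since Rps27rt, with the same coding end, had group means of 134 to 167 CPM. Between the mean levels of NC and siPdcd5 + TGF-β1 cells, the order of the members had a Spearman rho of 0.995 across 80 genes, which are not independent replicates.

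All members together took 3.04% to 3.90% of the counts of a library. The share was 3.52%, 3.35% and 3.43% in NC, 3.41%, 3.04% and 3.27% in NC + TGF-β1, 3.46%, 3.64% and 3.90% in siPdcd5, and 3.71%, 3.80% and 3.57% in siPdcd5 + TGF-β1. This gave 3.43% ± 0.083 (mean ± SD, n = 3) for NC and 3.24% ± 0.19 (mean ± SD, n = 3) for NC + TGF-β1. For siPdcd5 it gave 3.67% ± 0.22 (mean ± SD, n = 3) and for siPdcd5 + TGF-β1 3.69% ± 0.11 (mean ± SD, n = 3). These shares are a description without a test. All 3 siPdcd5 + TGF-β1 libraries were above all 3 NC + TGF-β1 libraries, while the ranges of NC overlapped with those of NC + TGF-β1 and of siPdcd5. The share on Rn45s, the row of ribosomal RNA, was 3.95% to 6.49% of a library.

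**Figure D2:**
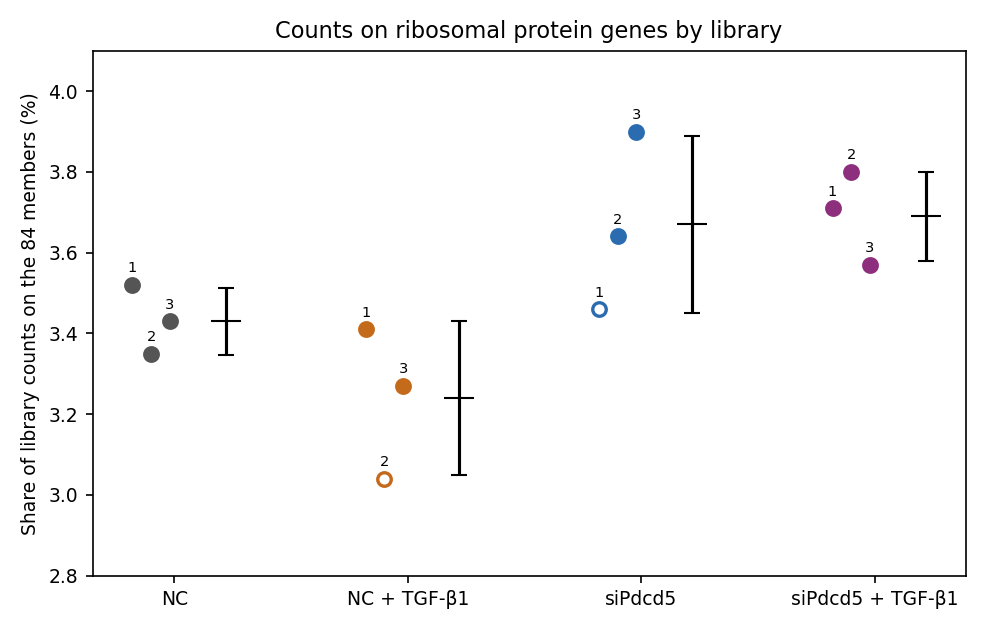
The y axis gives the percent of a library's counts on the 84 ribosomal protein genes, and does not start at 0. Points are libraries with their replicate number, open circles are the 2 libraries that stand apart, and bars are the mean ± SD of 3 libraries. The siPdcd5 + TGF-β1 libraries lie between 3.57% and 3.80%, above the NC + TGF-β1 libraries at 3.04% to 3.41%.

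Before the comparisons, 2 libraries stood apart from their groups, replicate 2 of NC + TGF-β1 and replicate 1 of siPdcd5. The SD of the members' deviations from the group mean was 0.269 and 0.223 (log2 CPM) in these libraries and 0.049 to 0.198 in the other 10. Both deviated in the same way, with 73 of 80 genes on the same side of their group mean in both. The lowest genes there were Rps20 (0.66 and 0.51 below the group mean on the log2 scale), Rps27, Rpl35 and Rpl8, and the highest were Rps2 (0.64 and 0.47 above), Rps23, Rpl22l1 and Rpl11. Across the 80 members the deviations of both libraries had a Pearson r of 0.95. Other genes at these levels did likewise, with an r of 0.89 across 3449 genes and 85.9% of them on the same side, so that the deviation was not limited to ribosomal protein genes. The retrocopy ratios above also moved in these libraries. Within the members, 81.2% of all variance inside groups lay on 1 component, in which these libraries had the largest loadings. For the other genes at these levels the first component held 73.6%. The cause was not tested. The calls of each comparison are given with all 12 libraries and with the 10 that remain without these 2, a setting chosen after the data were seen. The 2 libraries were picked by the members' own deviations, so the members' calls in the 10 libraries are shaped by that choice.

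**Figure D3:**
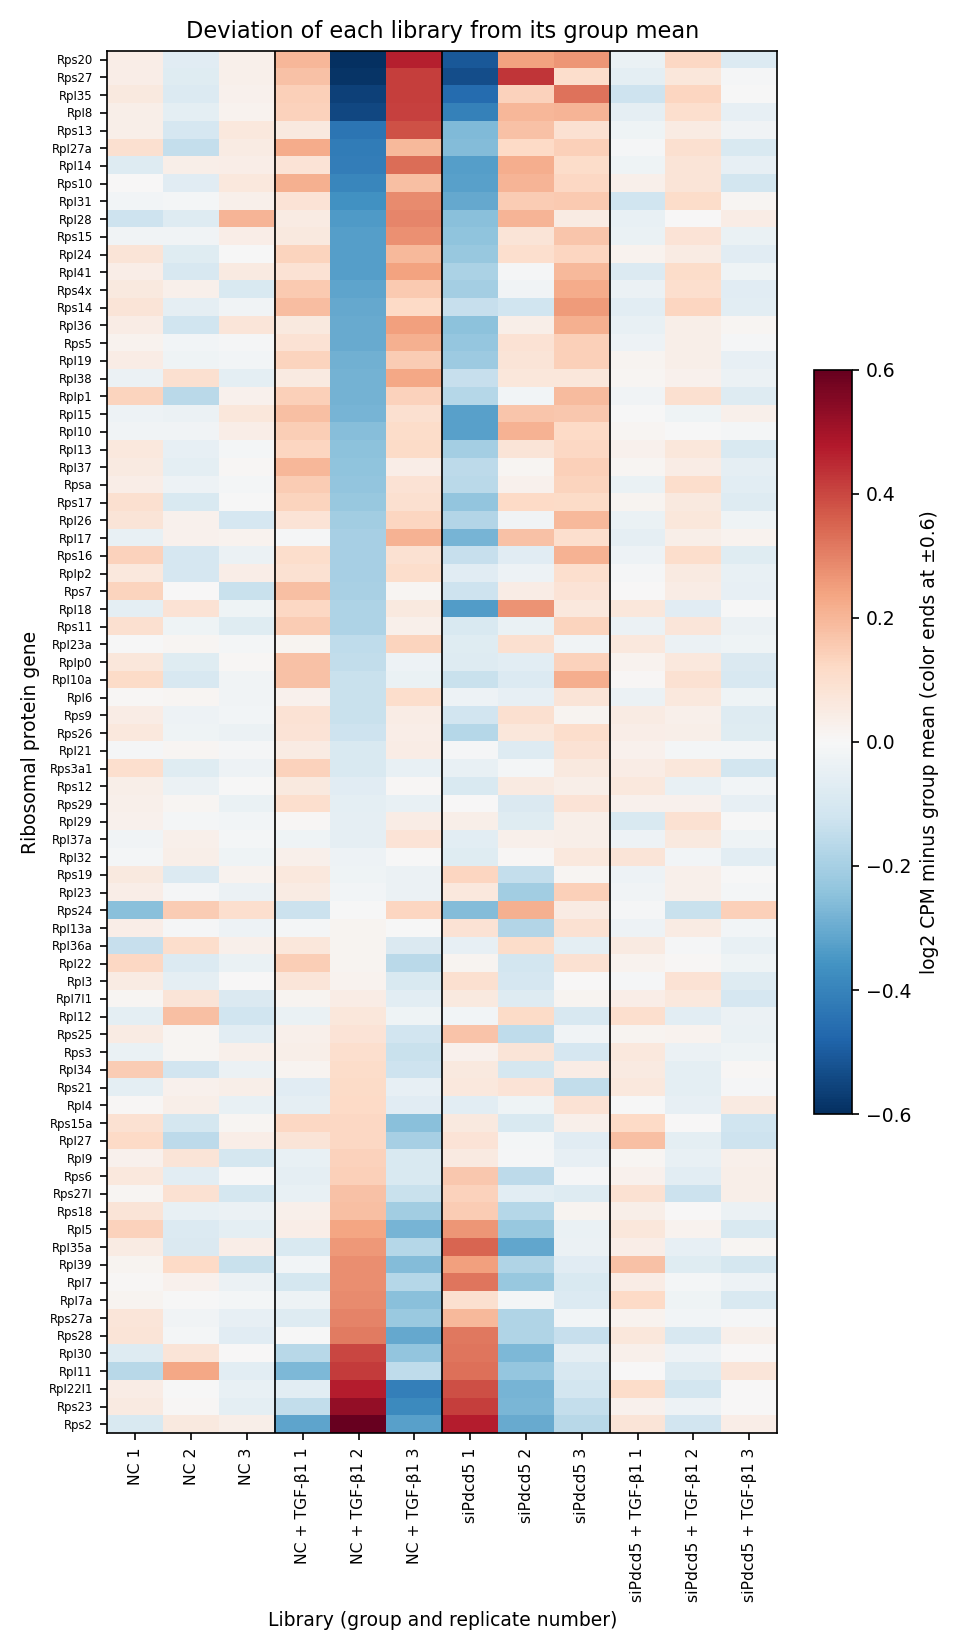
Each row is a tested ribosomal protein gene, with 2 of the 80 not shown, and each column is a library, and the color gives its log2 CPM minus the mean of its group, from blue (below) to red (above). Rows are sorted by NC + TGF-β1 replicate 2, in which 42 of all 80 genes lay more than 0.2 from the group mean. siPdcd5 replicate 1 runs in the same order with 35 such genes, and NC + TGF-β1 replicate 3 and siPdcd5 replicate 2 run in the opposite order. The deviations of a group sum to 0, which gives a part of this. NC + TGF-β1 replicate 3 had 27 such genes and replicate 1 had 4, and siPdcd5 replicate 2 had 17 and replicate 3 had 8. The libraries kept in these groups thus differed from each other too.

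With all libraries, TGF-β1 left the mRNA levels of ribosomal proteins in NC cells within narrow bounds. None of the 80 genes passed an adjusted p under 0.05 in edgeR (quasi-likelihood test, Benjamini-Hochberg over all genes), while 15.3% of all genes tested did, and 20.6% of the 3529 genes at or above the level of the lowest member. At an unadjusted p under 0.05 there were 2, both lower, where 27.1% of all genes had such a p, and DESeq2 called 2. The median log2 fold change of the 80 was −0.02, against 0.01 for all genes, and 32 of them were fitted higher, where 50.8% of all genes were. In 7 members (8.75%) the TGF-β1 libraries lay below all NC libraries and in 0 above, where 14.3% and 15.3% of all genes did so. For 75 of the 80 the 95% interval of the fold change lay within 1.5-fold in both directions, and for all 80 within 2-fold.

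The 3 members with the smallest p after TGF-β1 in NC cells were Rpl32, Rpl12 and Rpl36a, all of the large subunit. Rpl32 had 739, 763 and 733 CPM in NC and 646, 618 and 632 CPM in NC + TGF-β1. Its log2 fold change was −0.24 (SE 0.077, edgeR adjusted p = 0.0516). Rpl12, which sits at the base of the P-stalk, had 68.8, 81.0 and 65.8 CPM in NC and 56.6, 60.8 and 57.0 CPM in NC + TGF-β1. The treated libraries lay below all NC libraries for both genes. The log2 fold change of Rpl12 was −0.31 (SE 0.10, edgeR adjusted p = 0.0548). Neither passed the threshold here. Over 23 alternatives Rpl32 passed in 9, with adjusted p of 0.00231 to 0.162, and Rpl12 in 11, with adjusted p of 0.00991 to 0.255 (edgeR, limma or DESeq2), and both were lower in all of them. The alternatives refit the same libraries, so they are not independent of each other. Rpl36a had 109, 129 and 123 CPM against 111, 107 and 99.4 CPM, which overlapped, and a log2 fold change of −0.19 (SE 0.091, edgeR adjusted p = 0.193).

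Without the 2 libraries that stand apart, 18 members passed the threshold for TGF-β1 in NC cells, 7 higher (8.75%) and 11 lower (13.8%), where 29.1% of all genes did, 15.2% higher and 13.8% lower. The lower ones were led by Rpl22l1, a paralog of Rpl22, with a log2 fold change of −0.47 (SE 0.096, edgeR adjusted p = 0.000476), Rps28, near the mRNA exit of the small subunit (−0.47, SE 0.088, edgeR adjusted p = 0.000206), Rpl39, which lines the tunnel of the nascent peptide (−0.42, SE 0.096, edgeR adjusted p = 0.00165), and Rps2, near the mRNA entry (−0.40, SE 0.082, edgeR adjusted p = 0.000557). The higher ones were led by Rpl8 (0.45, SE 0.079, edgeR adjusted p = 8.65e-05) and Rpl35 (0.38, SE 0.088, edgeR adjusted p = 0.0017). Rps2 shows how much 1 library weighs. It had 169, 187 and 184 CPM in NC and 138, 269 and 137 CPM in NC + TGF-β1, where replicate 2 is the high value, and its fold change with all libraries was 0.01. Rps28 had 286, 270 and 259 CPM in NC and 219, 272 and 177 CPM in NC + TGF-β1. The genes called here include Rps2, Rps23, Rpl22l1 and Rpl11 among the lower, and Rps20, Rpl35 and Rpl8 among the higher ones, which were the genes that deviated most in the libraries left out. Rpl32 (−0.23) and Rpl12 (−0.35) were lower in this fit as well, at an edgeR adjusted p of 0.0151 and 0.00991.

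**Figure D4:**
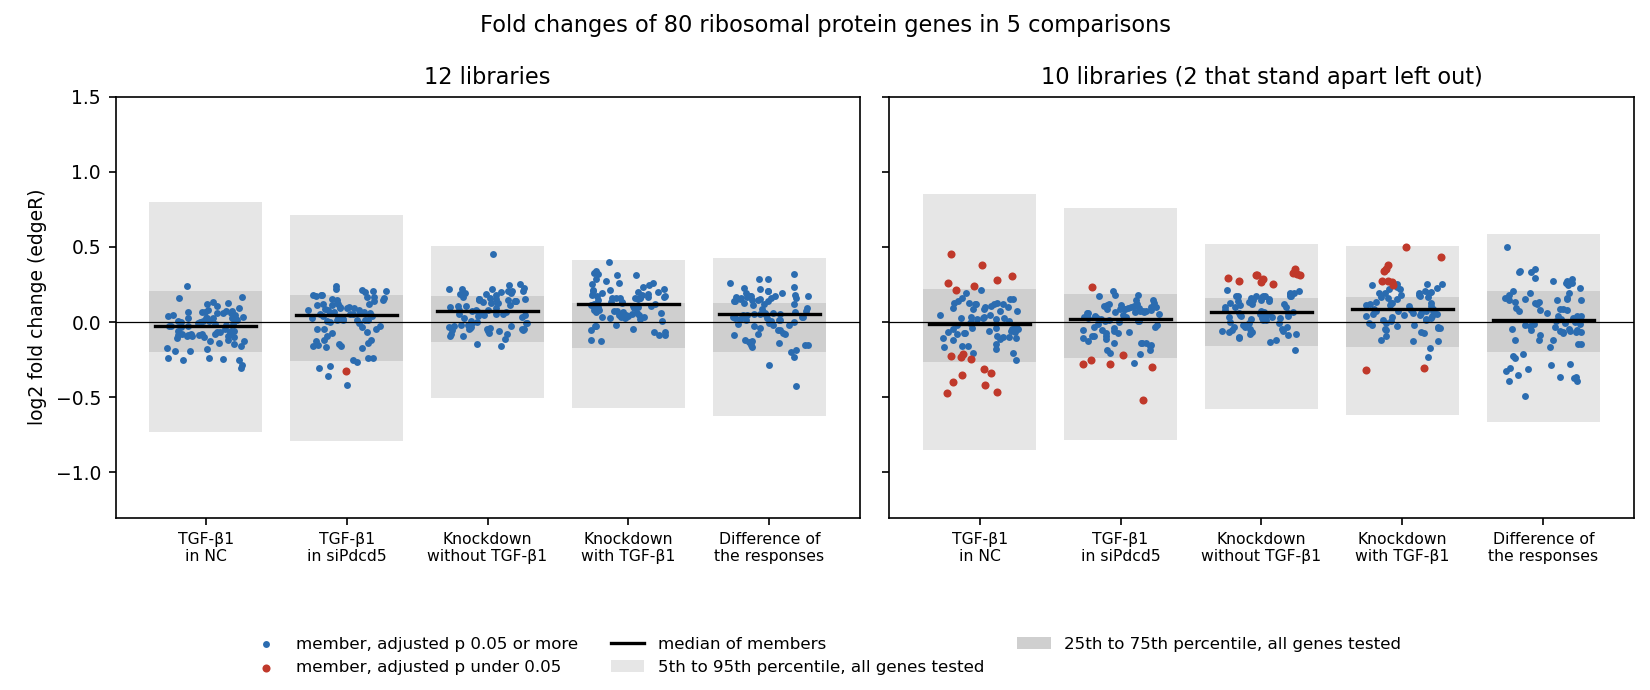
The y axis gives log2 fold changes from edgeR for 5 comparisons, with all 12 libraries on the left and with 10 libraries on the right. Points are the 80 ribosomal protein genes, red where the adjusted p was under 0.05, black lines are their medians, and grey bars are percentiles of all genes tested. With 12 libraries 1 point is red, and with 10 libraries there are 18, 7, 11, 11 and 0 from left to right, on both sides of 0 after TGF-β1 and mostly above 0 after knockdown.

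In siPdcd5 cells, TGF-β1 lowered 1 member past the threshold, Rps21, a protein of the small subunit. It had 193, 196 and 167 CPM in siPdcd5 and 154, 142 and 147 CPM in siPdcd5 + TGF-β1, without overlap. Its log2 fold change was −0.33 (SE 0.089, 95% interval −0.52 to −0.14, edgeR adjusted p = 0.0201). This is 1 of 80 members, or 1.25%, where 16.1% of all genes were called, 7.61% lower, and 22% of the genes at or above the level of the lowest member. DESeq2 called 2 members. At an unadjusted p under 0.05 there were 4 members, where 28.9% of all genes had such a p, with Rpl3 and Rps21 lower and Rpl7l1 and Rplp0 higher. Rpl3, a protein near the catalytic center of the large subunit, had 155, 136 and 146 CPM in siPdcd5 and 121, 128 and 115 CPM in siPdcd5 + TGF-β1. Its log2 fold change was −0.26 (SE 0.086, edgeR adjusted p = 0.0512).

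The call of Rps21 depended on single libraries. Leaving out siPdcd5 replicate 1 or 2, or siPdcd5 + TGF-β1 replicate 2 or 3, gave an edgeR adjusted p of 0.067 to 0.0911, with log2 fold changes of −0.32 to −0.29. In NC cells Rps21 had 154, 163 and 164 CPM, and 135, 154 and 137 CPM after TGF-β1 (log2 fold change −0.17, edgeR adjusted p = 0.233). The difference between its responses in siPdcd5 and NC cells was −0.15 (SE 0.13, edgeR adjusted p = 0.96). Without the 2 libraries that stand apart, 7 members passed in siPdcd5 cells, 6 lower (7.5%) and 1 higher (1.25%), where 24.9% of all genes did, 12.4% lower and 12.5% higher. Among the lower ones were Rps27 (−0.52), Rps21 (−0.30), Rpl28 (−0.28), Rps15 (−0.25) and Rpl18 (−0.22), and the higher one was Rpl7l1 (0.23), with edgeR adjusted p of 0.000202 to 0.0456. Rps27 is the gene whose coding end cannot be told from that of Rps27rt. In siPdcd5 replicate 1, left out here, Rps27, Rpl18, Rpl28 and Rps15 deviated by −0.53, −0.33, −0.25 and −0.24. Rps21 and Rpl7l1 deviated by 0.06 each. The median member had a log2 fold change of 0.05 and all genes had one of −0.03, with 52 of 80 members fitted higher, where 46.6% of all genes were. The groups did not overlap in 6 members that were higher and 5 that were lower after TGF-β1 (7.5% and 6.25%), where 17.9% and 18.1% of all genes did so. The sign of this median turned with quantile normalization, to −0.07.

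**Figure D5:**
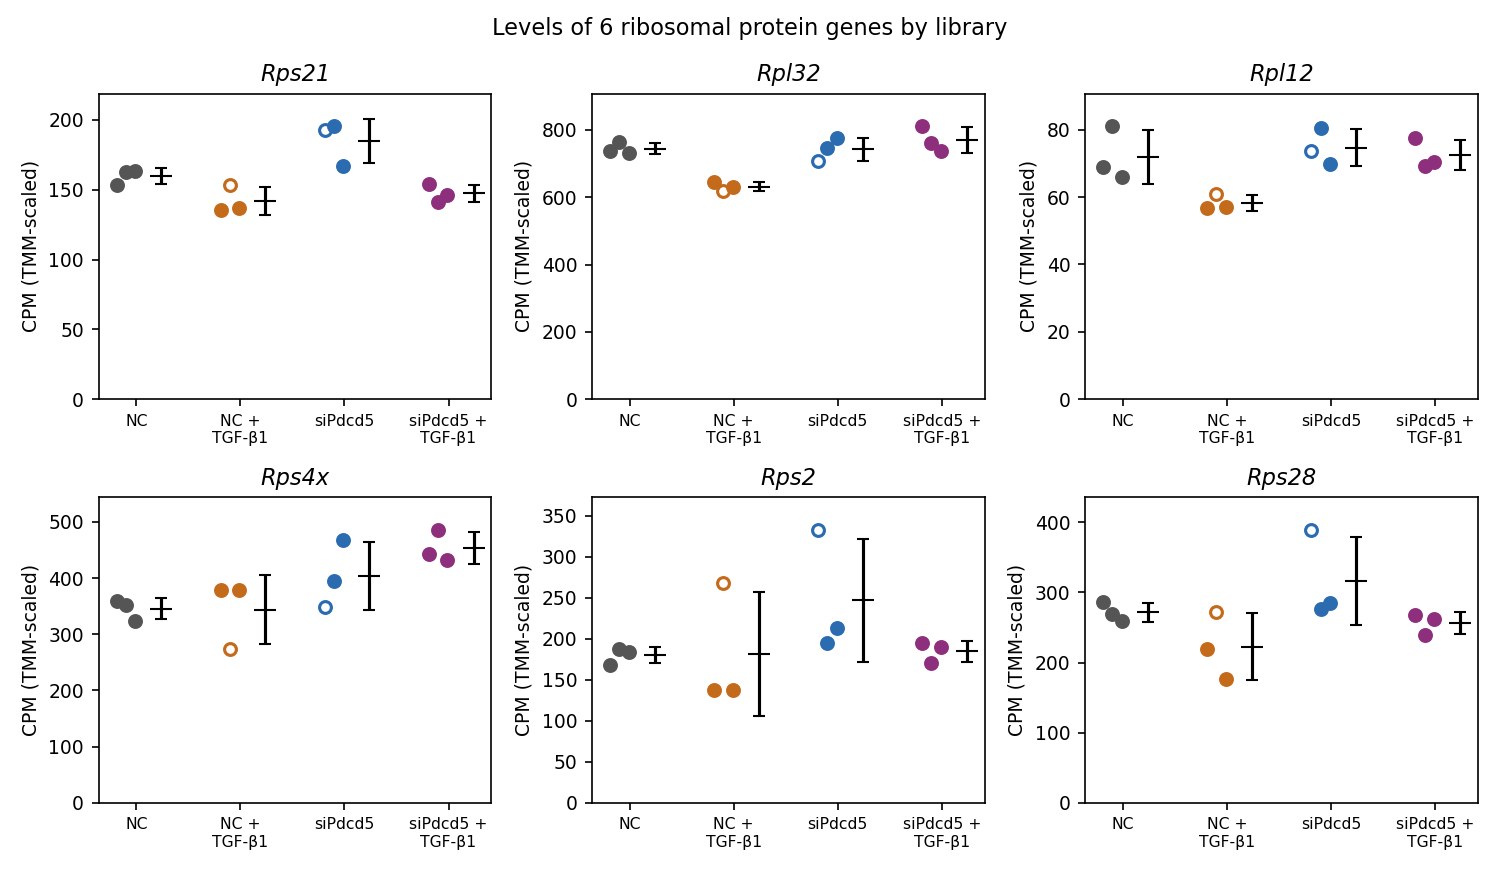
The y axes give CPM on TMM-scaled libraries for 6 ribosomal protein genes, points are libraries, and bars are the mean ± SD of 3 libraries. Open circles are the 2 libraries that stand apart. Rps21 falls from 167 to 196 CPM in siPdcd5 to 142 to 154 CPM in siPdcd5 + TGF-β1, and for Rps2 the open circles at 269 and 333 CPM are the 2 highest values.

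Knockdown of Pdcd5 without TGF-β1 called 0 of 80 members with all libraries, against 3.44% of all genes and 4.48% of those at or above the level of the lowest member. There were 4 at an unadjusted p under 0.05, all higher, where 15.7% of all genes had such a p and 6.74% were higher, and DESeq2 called 0. The median log2 fold change was 0.07 against 0.02 for all genes, 53 of 80 members were fitted higher, where 53.8% of all genes were, and for 77 of 80 the 95% interval lay within 1.5-fold. Rpl3 had the smallest p, with 126, 118 and 122 CPM in NC and 155, 136 and 146 CPM in siPdcd5 (log2 fold change 0.25, SE 0.086, edgeR adjusted p = 0.149). Rpl29 had 89.2, 86.7 and 86.6 CPM in NC and 103, 95.3 and 103 CPM in siPdcd5 (0.20, SE 0.081, edgeR adjusted p = 0.251). For both genes, and for Rps21 (0.21, SE 0.089, edgeR adjusted p = 0.264), the knockdown libraries were above all NC libraries. Such separation was seen upward for 9 members (11.2%) and downward for 1 (1.25%), where 10.6% and 12.5% of all genes did so.

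Without the 2 libraries, 11 members passed after knockdown without TGF-β1 and all 11 were higher, which is 13.8% of the members, where 9.09% of all genes were called, 3.56% higher and 5.54% lower. Among them were Rps15 (0.35, SE 0.076, edgeR adjusted p = 0.00328), Rpl35, Rpl8, Rps4x, Rpl36, Rpl10, Rpl14, Rpl41 and Rps10, and the 11 had log2 fold changes of 0.26 to 0.35. Rps15 had 370, 370 and 386 CPM in NC and 374, 467 and 497 CPM in siPdcd5, where the low value is replicate 1. All genes named here lay below their group mean in that replicate, from −0.46 (Rpl35) to −0.19 (Rpl41) on the log2 scale. Leaving it out raises their fold changes. The number and direction of the calls are shaped by that choice, and no conclusion is drawn from them. With all libraries each of the 11 had a positive log2 fold change too, of 0.12 to 0.25. The median member was at 0.07 in this fit and the median of all genes at 0. Leaving out any single library, siPdcd5 replicate 1 included, called 0 members, so that the 11 calls were made only with both libraries left out, 1 of which is not in this comparison. The median member was then lowest, at 0.01, without siPdcd5 replicate 3.

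In cells given TGF-β1, knockdown of Pdcd5 went with slightly higher levels of most ribosomal protein mRNAs. With all libraries 69 of 80 members were fitted higher, against 46.4% of all genes, with 40 of 48 in the large and 29 of 32 in the small subunit. The members vary together within libraries, so these counts do not stand for independent observations. The median log2 fold change was 0.12 against −0.02 for all genes, which is a small difference, and the members' own values ran from −0.12 to 0.40. None passed the adjusted threshold, where 1.55% of all genes and 1.79% of those at or above the level of the lowest member did. Of the members 14 (17.5%) had an unadjusted p under 0.05, all of them higher, where 13.8% of all genes had such a p and 5.55% were higher. In 20 members (25%) the 3 knockdown libraries lay above the 3 NC + TGF-β1 libraries, where 8.84% of all genes did, and in 0 below, where 10% of all genes did. DESeq2 called 1 member, Rpl32. In the lists described below, 71 of 93 ribosome biogenesis genes were also fitted higher (median 0.10). So were 50 of 77 mitochondrial ribosomal protein genes (0.08) and 14 of 19 other genes with a pyrimidine tract (0.06). Of 39 initiation factor genes 23 were higher (0.02), of 10 elongation factor genes 6 (0.09), and of 19 regulators 8 (−0.02). Malat1, a nuclear RNA, had 23720, 26410 and 22520 CPM in NC + TGF-β1 and 16180, 18750 and 21320 CPM in siPdcd5 + TGF-β1, without overlap (log2 fold change −0.37, SE 0.13, edgeR adjusted p = 0.194), and its part in the result was not tested. With other scalings 69 to 73 members were higher and the median ran from 0.12 to 0.17, and without the 2 libraries 60 were higher with a median of 0.09.

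The smallest p values after knockdown with TGF-β1 were those of Rpl32, Rpl12 and Rps4x. Rpl32 had 646, 618 and 632 CPM in NC + TGF-β1 and 811, 761 and 737 CPM in siPdcd5 + TGF-β1, with a log2 fold change of 0.28 (SE 0.077, 95% interval 0.12 to 0.45, edgeR adjusted p = 0.0875). Rpl12 had 56.6, 60.8 and 57.0 CPM against 77.5, 69.3 and 70.5 CPM (0.32, SE 0.10, edgeR adjusted p = 0.151). Rps4x, a small subunit protein encoded on the X chromosome, had 379, 273 and 379 CPM against 443, 486 and 433 CPM (0.40, SE 0.13, edgeR adjusted p = 0.167). In these 3 genes the knockdown libraries lay above all NC + TGF-β1 libraries. The NC + TGF-β1 libraries are shared with the comparison of TGF-β1 in NC cells, in which Rpl32 and Rpl12 were lower, so that both comparisons hold the same low values.

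Without the 2 libraries, 11 members passed after knockdown with TGF-β1, 9 higher (11.2%) and 2 lower (2.5%), where 8.43% of all genes were called, 2.73% higher and 5.7% lower. The higher ones were Rpl39 (0.50, SE 0.096, edgeR adjusted p = 0.00152), Rps2 (0.43, SE 0.082, edgeR adjusted p = 0.00129), Rps28, Rpl12, Rps18, Rpl32, Rps23, Rps4x and Rps6, the last being the substrate of S6 kinases. The lower ones were Rps27 (−0.32) and Rps13 (−0.31). In NC + TGF-β1 replicate 2, which was left out, Rps27 and Rps13 deviated by −0.59 and −0.44. Of the higher ones, Rps2, Rps23, Rps28, Rpl39, Rps18, Rps6 and Rpl12 deviated upward there, by 0.07 (Rpl12) to 0.64 (Rps2). Rpl32 and Rps4x deviated downward (−0.03 and −0.32). These calls are shaped by the choice of libraries, and no conclusion is drawn from their number or direction. Rps4x and Rpl32 were at 0.27 in this fit, Rpl12 at 0.36. Rps23 and Rps2 had log2 fold changes of −0.04 and 0.03 with all libraries, and of 23 alternatives this was the 1 that called them. Leaving out any single library, NC + TGF-β1 replicate 2 included, called 0 members.

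The response to TGF-β1 was not shown to differ between NC and siPdcd5 cells for any member. None of 80 and none of all 12425 genes passed for this difference, 1 member had an unadjusted p under 0.05, where 5.13% of all genes did, and DESeq2 called 0 members. That member was Rpl32, at 0.29 (SE 0.11, 95% interval 0.06 to 0.52, edgeR adjusted p = 0.949). Rps7 (0.32, SE 0.15, edgeR adjusted p = 0.951) and Rps12 (0.22, SE 0.11, edgeR adjusted p = 0.951) followed. The 95% interval lay within 1.5-fold for 63 and within 2-fold for 79 of 80 members. The median was 0.05 against −0.03 for all genes, with 55 of 80 members fitted higher where 45.3% of all genes were, and it was 0.01 without the 2 libraries, where again 0 members were called, and 1.59% of all genes passed, 0.563% higher and 1.02% lower. At an unadjusted p under 0.05 there were 25 members (31.2%) in that fit, where 16.1% of all genes had such a p. The 2 libraries were left out because these same members deviated in them, in the same direction in both. Their groups enter this difference with the same sign, so leaving them out moves the members' values by both deviations. The share is shaped by that choice, and no conclusion is drawn from it.

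Members with functions outside the bulk of the ribosome were followed apart. Rpl5 and Rpl11, which with 5S rRNA bind and inhibit Mdm2 when ribosome assembly fails, did not pass in any comparison of the 12 libraries. Rpl5 had 408 to 476 CPM in NC, 370 to 530 in NC + TGF-β1, 394 to 555 in siPdcd5 and 457 to 509 in siPdcd5 + TGF-β1. Rpl11 had 53.5 to 70.6, 46.3 to 74.7, 55.5 to 81.9 and 53.1 to 58.8 CPM in the same order. The ranges of the 4 groups overlapped for both genes. Without the 2 libraries Rpl11 was lower after TGF-β1 in NC cells (−0.34, edgeR adjusted p = 0.0191).

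The proteins of the P-stalk, which recruit and activate the GTPases of translation, had means of 701, 714, 736 and 856 CPM (Rplp0), 2483, 2700, 2581 and 2907 CPM (Rplp1) and 662, 696, 666 and 725 CPM (Rplp2) in the 4 groups, in the same order. Rplp0 had 804, 642 and 695 CPM in NC + TGF-β1 and 867, 895 and 807 CPM in siPdcd5 + TGF-β1, which did not overlap, with a log2 fold change of 0.26 (SE 0.099, edgeR adjusted p = 0.237). None of the 3 passed in the 12 libraries. Rps27a, which is made as a fusion with ubiquitin, had means of 372, 388, 392.4 and 396 CPM and log2 fold changes of 0.01 to 0.08 in the 4 comparisons between groups.

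Paralogs were compared with their core genes within each library, where the scaling of libraries has no part. Rpl22l1 was expressed below Rpl22, with a log2 ratio of −2.83 ± 0.084 (SD, n = 3) in NC, −2.97 ± 0.39 (SD, n = 3) in NC + TGF-β1, −2.88 ± 0.32 (SD, n = 3) in siPdcd5 and −3.29 ± 0.11 (SD, n = 3) in siPdcd5 + TGF-β1. The libraries that stand apart had the highest ratios of their groups, −2.52 and −2.51, and the other siPdcd5 and NC + TGF-β1 libraries lay between −3.22 and −3.05, below all NC libraries at −2.91 to −2.74. The siPdcd5 + TGF-β1 libraries were at −3.41 to −3.21. Rps27l, a paralog induced by p53, was above Rps27, with log2 ratios of 1.66 ± 0.15, 1.89 ± 0.68, 1.70 ± 0.60 and 2.04 ± 0.18 (SD, n = 3 each). Its own level was 284, 269, 273 and 293 CPM, so that the ratio moved with Rps27 in the 2 libraries. Without them the ratio was 1.5 in NC + TGF-β1 and 1.36 in siPdcd5, both below the NC mean. These ratios use the row of Rps27 alone. The row of Rps27rt, with the same coding end, held 1.45 to 2.75 times the counts of Rps27. Reads of Rps27 may lie on that row too, so the size of the excess of Rps27l over Rps27 is uncertain. Rpl7l1, which takes part in ribosome assembly, had log2 ratios to Rpl7 of −0.62 ± 0.051, −0.41 ± 0.20, −0.85 ± 0.23 and −0.42 ± 0.074 (SD, n = 3 each). Without siPdcd5 replicate 1 the third of these was −0.72.

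Ribosomal proteins that the symbols leave out, and the genes that make or use ribosomes, were taken from lists for comparison. Shares below are to be read against the 15.3% of all genes called after TGF-β1 in NC cells and the 16.1% called in siPdcd5 cells, and for the 10 libraries against 29.1% and 24.9%. After knockdown without and with TGF-β1, 3.44% and 1.55% of all genes were called, and 15.7% and 13.8% had an unadjusted p under 0.05. In the 10 libraries 9.09% and 8.43% of all genes were called after knockdown, 3.56% and 2.73% higher. Of 5 further ribosomal protein genes, among them Fau, Gnb2l1 and Rpl36al, 1 passed after TGF-β1 in NC and in siPdcd5 cells, the retrogene Rps27rt (−0.30, SE 0.078, edgeR adjusted p = 0.0175, and −0.31, SE 0.078, edgeR adjusted p = 0.0123). In the 10 libraries 1 of the 5 was higher and 1 lower in each of these comparisons (40%), and 1 was higher after knockdown without TGF-β1 (20%).

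Of 93 ribosome biogenesis genes, 6 were higher and 1 lower after TGF-β1 in NC cells (7.53%) and 15 were higher and 0 lower in siPdcd5 cells (16.1%), with medians of 0.14 and 0.17. With other scalings and DESeq2, 3 to 10 and 11 to 25 were higher. In the 10 libraries, 22 were higher and 3 lower in NC cells (26.9%), and 32 higher and 0 lower in siPdcd5 cells (34.4%). Tcof1, which serves ribosomal DNA transcription, rose by 0.46 in NC cells, Rrp9 by 0.43, and Npm1, a nucleolar chaperone, fell by 0.36. In siPdcd5 cells Tsr1, a factor of small subunit assembly, rose by 0.64 and Polr1a, the largest subunit of RNA polymerase I, by 0.48. After knockdown 0 of the 93 passed in edgeR. Without TGF-β1 8 of them had an unadjusted p under 0.05 and DESeq2 called 1, and with TGF-β1 15 had such a p and DESeq2 called 2. In the 10 libraries 4 were higher after each knockdown (4.3%), where 3.56% of all genes were without TGF-β1 and 2.73% with it.

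Among 39 initiation factor genes, 4 were higher and 2 lower after TGF-β1 in NC cells (15.4%), and 7 higher and 1 lower in siPdcd5 cells (20.5%). In the 10 libraries 8 were higher and 7 lower in NC cells (38.5%), and 15 higher and 3 lower in siPdcd5 cells (46.2%). Eif6, which keeps the large subunit from joining too early, rose by 0.73 and 0.56, and Eif4b, a helper of the Eif4a helicase, fell by 0.36 and 0.42. Knockdown without TGF-β1 lowered Eif1a (−0.42) and Eif3c (−0.33), which is 5.13% of the 39. With TGF-β1 0 passed in edgeR or DESeq2 with the 12 libraries, and 3 had an unadjusted p under 0.05. In the 10 libraries 1 was higher and 3 lower after knockdown without TGF-β1 (10.3%), and 1 higher and 1 lower with it (5.13%).

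Of 77 mitochondrial ribosomal protein genes, 1 was higher and 1 lower in NC cells (2.6%), Mrpl52 (0.31) and Mrps6 (−0.41), and 5 were higher in siPdcd5 cells (6.49%). In the 10 libraries 10 were higher and 3 lower in NC cells (16.9%), and 6 higher and 1 lower in siPdcd5 cells (9.09%). After knockdown 0 passed in edgeR, where 8 without and 7 with TGF-β1 had an unadjusted p under 0.05 and DESeq2 called 1 in each. In the 10 libraries 5 were higher and 2 lower without TGF-β1 (9.09%), and 3 were higher with it (3.9%). Of 10 elongation factor genes, Eef1g (0.28) was called after TGF-β1 in siPdcd5 cells, and none in the other comparisons of the 12 libraries, with 1 higher and 1 lower in NC cells and 2 higher and 1 lower in siPdcd5 cells in the 10.

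The 19 genes outside the ribosome with a pyrimidine tract had 3 lower in NC cells (15.8%) and 3 lower and 1 higher in siPdcd5 cells (21.1%), led by Vim, an intermediate filament gene (−0.61 and −0.77). In the 10 libraries 8 were lower and 1 higher in NC cells (47.4%), and 4 lower and 2 higher in siPdcd5 cells (31.6%). Of 19 regulators of ribosomal protein mRNAs and ribosome synthesis, 3 rose and 2 fell in each TGF-β1 comparison (26.3%), and in the 10 libraries 2 rose and 4 fell in NC cells (31.6%) and 5 rose and 5 fell in siPdcd5 cells (52.6%). Eif4ebp1, the repressor of cap-dependent initiation that mTOR inactivates, rose by 0.88 and 0.94, Tsc2, an inhibitor of mTOR, by 0.67 and 0.54, and Maf1, a repressor of RNA polymerase III, fell by 0.41 and 0.35. All changes named in these lists had an edgeR adjusted p under 0.05 in the 12 libraries.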

How the data were processed

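RNA-seq libraries were prepared with the QuantSeq 3′ kit and sequenced as single-end reads. The authors aligned the reads with Bowtie2 and used Bedtools to count unique and multiple alignments, and the deposited counts are whole numbers per gene symbol without normalization. Which gene annotation they used, and whether strand was considered, is not given in the sources used here. Groups were taken from the labels of the 12 libraries.

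The default filterByExpr filter of edgeR was applied to all 12 libraries, which were scaled by TMM, and 1 model with 4 groups was fitted with the quasi-likelihood functions of edgeR 4.0.16 in R 4.3.3. Benjamini-Hochberg adjustment ran over all 12425 genes, with an adjusted p threshold of 0.05. Log2 CPM values carry a prior count of 2. Other scalings, filters, samples in the fit, copy rows added to members and each library left out in turn were tried, with limma 3.58.1 and DESeq2 1.42.0 as other tools, and copies were found with BLAST+ 2.17.0 in GENCODE transcripts. The scripts were tested on simulated data. Replicates differed by more than sampling noise. Intervals cover the spread between libraries, and the floor of 3 counts covers counting error only, since the reads carry no molecular identifiers.

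The members and gene lists were chosen with earlier results of these data known. Genes named in the text were those with the 5 largest rises and falls past the threshold, or the 3 smallest p where none passed, the 5 highest and 5 lowest levels, the 5S, stalk, ubiquitin and paralog members, Pdcd5, and the 2 largest rises and falls of each other list. Genes named from the 10 libraries, from unadjusted p values and for their deviations were chosen after their values were seen. Same-numbered libraries of 2 groups had deviations that correlated at r = −0.324 to 0.166, so replicate numbers were not taken as pairs. A few genes that this rule names are not reported here.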

Additional observations from a re-analysis of the deposited data

How the results depend on the processing

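Among summary values recomputed under settings other than leaving out 1 library, 97 stayed close to the reported value and 19 moved. Of the members named for their p in the 12 libraries, none reversed under any of these settings. The number of members called after TGF-β1 in NC cells, 0 as reported, was 2 with upper-quartile factors, TMM without the members, DESeq2, at least 10 counts in every library, and copy rows added to members, 3 with quantile normalization, and 18 without the 2 libraries. In siPdcd5 cells, 1 as reported became 2 with upper-quartile factors, DESeq2 or at least 10 counts, 3 with quantile normalization, and 7 without the 2 libraries. After knockdown without TGF-β1 it was 11, and with TGF-β1 11, without the 2 libraries, and 1 with DESeq2, in place of 0. The median log2 fold change became −0.131 (TGF-β1 in NC cells), −0.07 (TGF-β1 in siPdcd5 cells) and 0.166 (knockdown with TGF-β1) with quantile normalization. Leaving out 1 library at a time gave 0 to 6 called members for TGF-β1 in NC cells, with 6 without NC + TGF-β1 replicate 2, 0 to 3 in siPdcd5 cells, with 3 without the same library, and 0 in the other comparisons. The medians then ran from 0.012 to 0.099 for knockdown without TGF-β1 and from 0.03 to 0.112 for the difference of the responses.

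With the replicate block, 0, 1, 0, 0 and 0 members were called in the 5 comparisons, with medians of −0.026, 0.049, 0.07, 0.12 and 0.057, so that it changed no call of a member. Over all genes the block called 1687, 1731, 301, 107 and 0, against 1906, 2002, 427, 192 and 0 without it. The cause of these shifts was not tested. With 3 libraries a group and 8 residual degrees of freedom, the 95% interval lay within 1.5-fold for 63 to 77 of 80 members. The sign of the median turned with quantile normalization for TGF-β1 in siPdcd5 cells. The fit with only the compared groups was not run for the difference of the responses.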
